A study of Hydra oligactis with 61 samples.

Results

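A set of 92 transcripts of *Hydra oligactis* was described that was high in the body column and low at both ends of the polyp. The members were chosen by measured levels. With L standing for log2 of 1 plus the group's mean CPM (counts scaled to a common library size), L in uninjured foot and L in uninjured head each had to lie at least 3 below L at 0 hours post amputation (hpa) in both the foot-regenerating and the head-regenerating tips. In all 92 of 23396 transcripts met this rule. The word absent does not describe them, since no member had an expected count of 0 in any Foot library and 3 members had one in at least 1 Head library. They are called body column genes here.

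Poly(A) RNA was measured in 61 libraries of the strain Innsbruck 12, each from tissue pooled over several polyps. For the regenerating tips the polyps were bisected at mid-column, and Foot and Head were taken from uninjured polyps. The groups were head-regenerating tips (HR, the upper end of the lower piece), foot-regenerating tips (FR, the lower end of the upper piece) and foot-regenerating tips given Alsterpaullone (aFR, 5 µM for the first 3 h, then washed), with intact Foot (peduncle and basal disk) and intact Head (hypostome and tentacle ring) beside them. At 0 hpa there were 7 HR and 7 FR libraries, and at 3, 12, 24 and 48 hpa each arm had 3. aFR had 3 each at 3, 12 and 24 hpa and 4 at 48 hpa, and Foot and Head had 5 each. All groups other than aFR were in DMSO, the solvent of the drug, and Alsterpaullone is an inhibitor of the kinase GSK3 that switches on Wnt/β-catenin signaling. Libraries 1 to 4 at 0 hpa and the libraries of 3, 12 and 48 hpa were sequencing batch 1 by the design text of the series, and libraries 5 to 7 at 0 hpa and those of 24 hpa were batch 2. It does not say which Foot and Head columns belong to which batch.

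The body column of a Hydra polyp is where its stem cells divide. Epithelial cells and the interstitial stem cells cycle there, and daughter cells are displaced toward the tentacles and the basal disk, where they stop dividing, differentiate and are shed. Interstitial cells also give rise to nests of maturing stinging cells (nematocytes), gland cells, nerve cells and the germ line. A gene that is high in the column and low at both ends can therefore mark cycling cells, maturing nematocytes or column epithelium, and bulk tissue does not separate these. Fewer cells of a type and less RNA per cell cannot be told apart in any value below.

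Few members had a known protein match. A protein name was at hand for 12 of the 92, and 32 were listed in any supplementary table. The 92 transcripts came from 82 clusters of the transcriptome assembly, and 8 clusters held 18 members, so that reads may be shared between these and their separate values are uncertain. All 92 passed the low-count filter and were among the 17676 transcripts tested.

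Transcript sequences were at hand for 2 members, and a stretch of each reading frame is shown because the pair stands for 2 behaviours described below, one gene lower at 24 hpa in every arm and one that passed a test only between HR and FR at 48 hpa. R001575c0g1_i01, without a protein name, is 1351 bases long, and its longest reading frame has 278 codons between bases 91 and 927. R003173c0g1_i01, a match to zinc finger protein 233, is 2064 bases long, and its longest reading frame has 464 codons between bases 355 and 1749 and holds 5 copies of the C2H2 zinc finger pattern, a fold in which 2 cysteines and 2 histidines grip a zinc ion and which often binds DNA. In the first line the capitals mark the start codon (bases 91 to 210 of the transcript), and in the second they mark the cysteine and histidine codons of the first finger (bases 1162 to 1224).
R001575c0g1_i01: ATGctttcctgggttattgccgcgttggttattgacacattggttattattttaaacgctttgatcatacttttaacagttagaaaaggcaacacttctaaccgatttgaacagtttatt
R003173c0g1_i01: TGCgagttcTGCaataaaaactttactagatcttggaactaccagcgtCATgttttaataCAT

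Total counts ran from 14550984 to 26108358 per library. Replicate libraries of a group differed by more than counting noise, and nothing says that each pool had a culture of its own, so the p-values below measure the spread between these pools only. This spread was unequal. The chi-square per degree of freedom between 2 replicates was 2.2 to 2.63 in FR and 2.09 to 3.18 in HR at 24 hpa. At 48 hpa it was 10.1 to 14.1 in FR and 6.32 to 13.0 in HR. The main fit shared 1 estimate of the spread over all groups. The nerve cell transcripts (9 fixed matches, 5 of them RFamide neuropeptide precursors) summed to 53.1 to 95.6 CPM in the 0 hpa libraries, against 794 to 933 CPM in Foot and 1118 to 1421 CPM in Head. The 6 foot genes summed to 531 to 556 CPM in Foot and to 5.75 to 10.4 CPM in Head, and the 5 head genes to 419 to 475 CPM in Head and 3.6 to 5.02 CPM in Foot. The markers were thus high where the labels place them, though both lists were chosen with earlier results of these data known. One Foot library (column ON1) stood apart, with 1154 CPM over the 92 members against 1463 to 1528 CPM in the other 4 Foot libraries. FR library 4 at 0 hpa was low for some members, and is named where it matters.

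The levels that chose the members are given as a description with no test. The 92 members together made up 14810 ± 1550 CPM in FR and 14720 ± 224 CPM in HR at 0 hpa (libraries 1 to 4, SD, n = 4 each), against 1423 ± 152 CPM in Foot and 646 ± 68.4 CPM in Head (SD, n = 5 each). The median member had a mean of 77.56 CPM in FR and 77.42 CPM in HR at 0 hpa, against 6.41 CPM in Foot and 2.55 CPM in Head. In 90 of 92 members the mean was higher in Foot than in Head. Each of the 10 Foot and Head libraries lay under each of the 0 hpa libraries in all 92 members, both for libraries 1 to 4 and for libraries 5 to 7. The rule did not use libraries 5 to 7, but it used the Foot and Head libraries. This outcome was thus largely set by the choice of members and is no independent check. The gap of the rule, the smallest of the differences in L, had a median of 3.19.

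**Figure D1:**
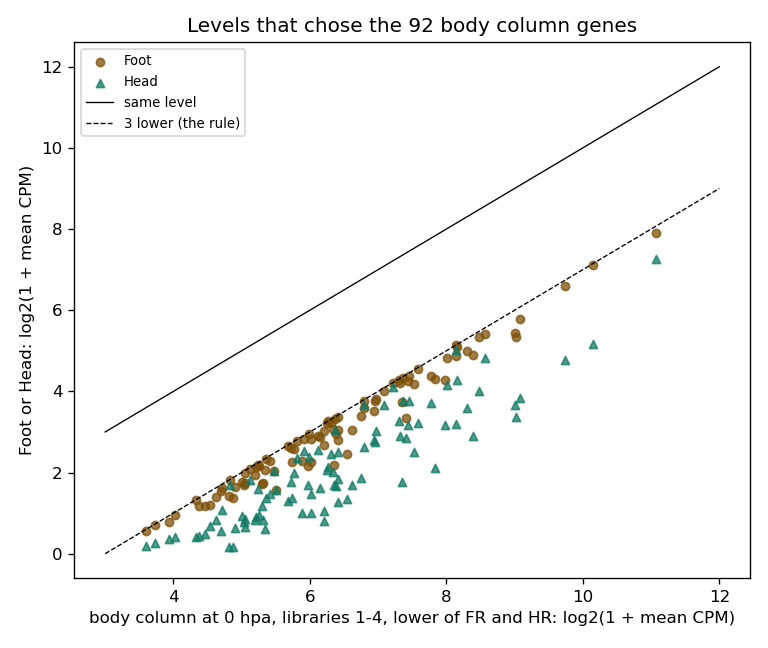
Level of each body column gene in Foot (circles) and Head (triangles) on the y axis against its level at 0 hpa on the x axis (the lower of FR and HR, libraries 1 to 4), both as log2 of 1 plus mean CPM. All 92 genes lie on or under the dashed line 3 units below equality, most Foot points lie close to it, and Head is lower than Foot in 90 of 92.

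The largest gaps belonged to R036990c4g1_i01 (4.17), R035626c5g1_i01 (4.09), R036990c4g2_i06 (4.06), R040937c1g5_i01 (3.93) and R026804c0g2_i01 (3.81), none of which had a protein name. Both R036990 transcripts come from the same assembly cluster. R035626c5g1_i01 had 110.9, 92.5, 106.9 and 115.9 CPM in FR and 109.8, 75.5, 101.9 and 83.7 CPM in HR at 0 hpa, against 3.79 to 5.93 CPM in Foot and 0.522 to 2.23 CPM in Head. At the other edge R023159c0g1_i02 (3.0058) and R039296c1g1_i01 (3.0006) were just inside the threshold, and R036495c0g1_i01 (2.9952) and R039664c0g1_i03 (2.9919) just outside.

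The choice of libraries and scaling moved the edge of the set. With 0 hpa libraries 5 to 7 in place of 1 to 4, 86 transcripts met the rule, 70 of the 92 among them, and the gaps of the 92 had a median of 3.17 and a lowest value of 1.6. After TMM scaling, which corrects for the makeup of each library, 45 transcripts met it, all among the 92. On plain CPM the median of 16135 transcripts was itself 0.18 to 0.21 log2 units higher at 0 hpa than in Foot and 0.26 to 0.30 higher than in Head, and TMM scaling brought these to 0.02 to 0.03 and 0.07. The median difference of the members from Foot was 3.24 on CPM and 3.04 to 3.08 after TMM, and from Head 4.19 to 4.23 on CPM and 4.02 to 4.03 after TMM. R023159c0g1_i02 differed between the batches, with 133.0 to 176.9 CPM in the 8 batch 1 libraries at 0 hpa and 54.0 to 62.5 CPM in the 6 of batch 2.

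Per unit length the members spanned a wide range of levels. In 0 hpa libraries 5 to 7 of both arms their FPKM (fragments per kilobase of transcript, scaled to library size) ran from 3.7 to 1777 with a median of 45.6. R038313c0g2_i01, without a protein name, was far above the others at 1777 ± 114 FPKM (SD, n = 6), followed by R023159c0g1_i02 (458 FPKM), R039296c1g1_i01 (336 FPKM), R041425c3g7_i08 (315 FPKM, a Gag-Pol polyprotein match), R039899c1g5_i02 (311 FPKM) and R021009c0g1_i01 (224 FPKM, a match to FKBP14). The lead of R038313c0g2_i01 over R023159c0g1_i02 is many times the spread among these 6 libraries, but all 6 are of batch 2. In batch 1 R023159c0g1_i02 had means of 164.7 CPM in FR and 148.3 CPM in HR at 0 hpa, against 60.3 and 55.3 CPM in batch 2. R038313c0g2_i01 had 2352 and 2162 CPM in batch 1, against 2493 and 2237 CPM in batch 2. The size of the lead therefore depends on the batch.

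The 12 members with a protein match fell into a few roles. Histone H2A (R060965c0g1_i01) packages DNA and is made mostly as cells copy it, and histone H1.0 (R026532c6g1_i02) is a linker histone. Gag-Pol (R041425c3g7_i08) and the Tf2-7 polyprotein (R041569c3g1_i01) are retrotransposon proteins. FKBP14 (R021009c0g1_i01) is a prolyl isomerase of the endoplasmic reticulum that helps fold collagen in mammals, and 2 transcripts (R014900c0g1_i02 and R034192c0g1_i01) matched the transmembrane prolyl 4-hydroxylase P4H-TM. Arylsulfatase B (R007971c0g1_i01) removes sulfate from glycosaminoglycans in lysosomes, the low choriolytic enzyme (R030221c0g1_i02) is an astacin metalloprotease known from fish hatching, VPS4 (R030154c0g1_i02) is the ATPase that takes ESCRT complexes apart, and NMRAL1 (R036578c0g1_i01) is a redox sensor in mammals.

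The question of the tests was what these genes did in tips at the head-facing and foot-facing wounds. The paper reports that most polyps of this strain did not regrow a foot after bisection at mid-column. FR therefore stands mostly for failed foot regeneration, and the paper reports that Alsterpaullone raised the share of polyps that regrew a foot. The rule used none of the libraries of 3 to 48 hpa nor 0 hpa libraries 5 to 7. Of 92 members 91 passed an adjusted p under 0.01 in at least 1 of 17 comparisons, as 64.0% of all transcripts did, by edgeR's quasi-likelihood test with Benjamini-Hochberg adjustment over all 17676 transcripts, which is the test behind every adjusted p below. Differences are on the log2 scale with their standard errors (SE).

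In the fit of all 61 libraries HR and FR tips differed in the most members at 48 hpa. That fit shared its estimate of the spread over groups whose spread was unequal, so this ranking of the times holds for it only. Fitting only the groups compared gave higher counts at earlier times, as stated below. In HR at 48 hpa 55 of 92 members were lower and none was higher in the fit of all 61 libraries. Over all transcripts 9.71% were called lower and 22.5% in either direction. The median difference of the 92 was -0.50, against -0.01 over all transcripts tested, and 89 of 92 lay below 0. The groups did not overlap in 45 of the 55 (81.8%), a smaller share than the 92.3% of all 1717 transcripts called lower. The summed level of the 92 was 8595 to 10490 CPM in HR, against 12370 to 14760 CPM in FR, so the library sums did not overlap either.

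R040937c1g5_i01, without a protein name, moved most. It had 11.7, 12.3 and 10.1 CPM in HR at 48 hpa, against 60.4, 42.7 and 45.2 CPM in FR, a difference of -2.15 (SE 0.17, adjusted p = 2.024e-15), so HR was 4.45-fold lower. The HR libraries were still above the 0.881 to 2.9 CPM of Foot and the 1.27 to 2.4 CPM of Head. R026804c0g2_i01 followed, with 19.1, 21.4 and 23.7 CPM in HR, against 69.8, 67.9 and 79.0 CPM in FR (-1.77, SE 0.13, adjusted p = 1.859e-16). R038732c0g3_i01 had 45.1, 49.6 and 54.5 CPM in HR, against 81.4, 90.4 and 83.2 CPM in FR (-0.79, SE 0.09, adjusted p = 9.015e-10). In all 3 genes each HR library lay below each FR library.

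The members with names shared this direction only in part. Those lower in HR at 48 hpa included both P4H-TM matches, FKBP14, arylsulfatase B, the choriolytic enzyme and the zinc finger gene, and the histones, the retrotransposon matches, VPS4 and NMRAL1 did not pass. FKBP14 (R021009c0g1_i01) had 114.4, 116.5 and 141.3 CPM in HR, against 177.4, 189.2 and 197.6 CPM in FR (-0.62, SE 0.10, adjusted p = 9.259e-07). The P4H-TM match R034192c0g1_i01 had 68.1, 76.2 and 86.8 CPM in HR, against 111.9, 126.5 and 132.7 CPM in FR (-0.70, SE 0.12, adjusted p = 2.369e-06), and its partner R014900c0g1_i02 differed by -0.54 (SE 0.12, adjusted p = 0.0002319). Arylsulfatase B (R007971c0g1_i01) had 43.9, 46.2 and 49.4 CPM in HR, against 65.3, 69.8 and 68.3 CPM in FR (-0.56, SE 0.09, adjusted p = 7.777e-07). The zinc finger gene R003173c0g1_i01 had 81.1, 91.3 and 81.5 CPM in HR, against 109.8, 116.7 and 105.9 CPM in FR (-0.41, SE 0.10, adjusted p = 0.001523), the only comparison of the 17 in which it passed. The most abundant member, R038313c0g2_i01, had 1576, 1517 and 1749 CPM in HR, against 2168, 2346 and 2276 CPM in FR (-0.51, SE 0.09, adjusted p = 3.741e-06).

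**Figure D2:**
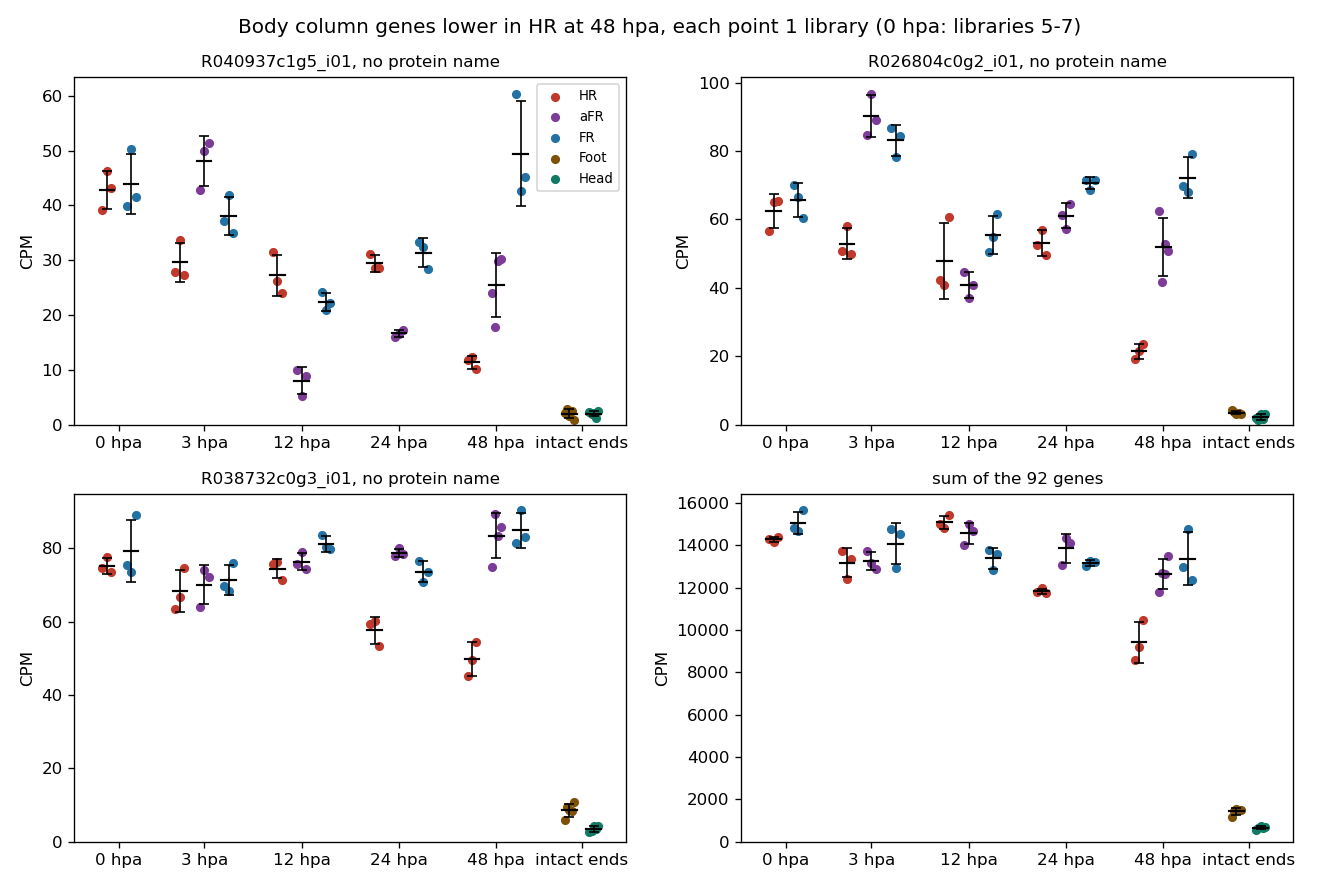
CPM of 3 body column genes and the summed CPM of all 92 (y axes, from 0) in each library by hours after amputation, with intact Foot and Head at the right; horizontal lines are means and bars 1 SD. At 48 hpa the HR points lie below every FR and aFR point in all 4 panels, between 8595 and 10490 CPM for the sum.

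Marker lists moved beside these members at 48 hpa. The lists hold transcripts with protein matches, and every transcript of each was measured and tested. Of 9 nerve cell matches 7 were higher in HR and none was lower, with a median of 1.18, and their summed level was 227 to 277 CPM in HR, against 139 to 155 CPM in FR. Of 5 head genes (Wnt and T-box matches among them) 5 were higher, with a median of 5.64, and 2 of 6 foot genes were lower. Of 9 matches to toxins, P4H-TM and vesicular amino acid transporters, 2 of them members, 8 were lower (median -0.49). Of 13 transcripts on the list of secreted digestive enzymes 7 were lower and 2 higher (median -0.41). The only member on that list was arylsulfatase B, which is an enzyme of lysosomes. Of 17 cell cycle and DNA replication matches, with histone H2A the only member among them, 5 were higher and none was lower (median 0.03), and of 9 germline and meiosis matches 2 were lower. The part of these in the result was not tested.

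HR tips were also set against themselves over time. From 3 to 48 hpa, both in batch 1, 44 members were lower at 48 hpa and none was higher in HR (lower calls over all transcripts 10.5%, either direction 24.0%), with a median of -0.36. In FR 3 were lower and 3 higher between the same times (4.64% of all transcripts lower, 5.8% higher, 10.4% together), with a median of -0.05. The difference between both changes, tested as 1 contrast, passed for 26 members, each with the more negative change in HR (3.27% of all transcripts in that direction, 5.96% in the other, 9.23% in either). R040937c1g5_i01 had 11.7, 12.3 and 10.1 CPM at 48 hpa, against 27.9, 33.7 and 27.3 CPM at 3 hpa, in HR (-1.35, SE 0.17, adjusted p = 4.987e-09), and its HR change was 1.81 log2 units below its FR change (SE 0.23, adjusted p = 1.794e-08). R038666c0g1_i01 had 5.42, 5.49 and 7.12 CPM at 48 hpa, against 22.8, 22.5 and 27.0 CPM at 3 hpa, in HR (-1.95, SE 0.19, adjusted p = 3.155e-12), and it also fell in FR (-1.0, SE 0.18, adjusted p = 3.094e-05).

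How many members showed that difference between the arms rested on single libraries. It was 16 without FR library 1, 7 without FR library 3, 9 without HR library 1 and 6 without HR library 4 of 3 hpa, and 9 without FR library 2, 4 without HR library 1 and 10 without HR library 3 of 48 hpa. With a required fold of 1.2 (glmTreat) it was 4, and with only the groups compared in the fit 10 (6.15% of all transcripts). Under the required fold of 1.2 the HR against FR count at 48 hpa was 27 of 92.

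A second pattern appeared at 24 hpa. Against 0 hpa libraries 5 to 7, which are of the same batch, 28 members were lower in HR and 3 higher (9.78% and 11.2% of all transcripts, 21% together), and 26 were lower in FR and none higher (10.1% lower, 9.28% higher, 19.4% in either direction). Of these 25 were shared, 89.3% of the HR list and 96.2% of the FR list, and the HR and FR comparisons have no library in common. In aFR 25 were lower (8.97% of all transcripts lower, 7.69% higher, 16.7% in either direction), measured against the same FR libraries at 0 hpa that served FR, and 21 members were lower in all 3 arms. The medians of the 92 were -0.27 in HR, -0.11 in aFR and -0.15 in FR, and the largest falls sat in a subset. Below 0 lay 82 of 92 members in HR, 63 in aFR and 72 in FR. The upper quartiles were -0.11, 0.03 and -0.03, so in HR the lower level was not confined to the members that passed. Fitting only the groups compared, the HR count was 61 (31.7% of all transcripts), and with a required fold of 1.2 it was 20.

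Histone H2A (R060965c0g1_i01) fell most among the members with a protein name. It had 2.99, 2.66 and 2.65 CPM in FR at 24 hpa, against 57.1, 44.0 and 47.9 CPM in FR at 0 hpa (-4.12, SE 0.35, adjusted p = 3.665e-13), so it was 17.4-fold lower. In HR it had 2.33, 2.39 and 2.65 CPM at 24 hpa, against 28.1, 46.2 and 36.1 CPM at 0 hpa (-3.84, SE 0.37, adjusted p = 4.867e-12). In aFR it had 6.29, 6.42 and 6.48 CPM at 24 hpa (-2.92 against FR at 0 hpa, SE 0.32, adjusted p = 1.952e-10), a value above every HR and FR library of that time. At 48 hpa it was at 5.12 to 17.0 CPM in HR, 8.01 to 14.8 CPM in aFR and 7.39 to 15.5 CPM in FR.

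Histone H1.0 (R026532c6g1_i02) ran alongside it. It had 5.37, 5.2 and 4.23 CPM in FR at 24 hpa, against 33.3, 39.1 and 30.5 CPM at 0 hpa (-2.77, SE 0.27, adjusted p = 1.239e-11). The differences were -2.39 (SE 0.27, adjusted p = 3.792e-10) in HR and -1.89 (SE 0.25, adjusted p = 4.232e-08) in aFR. H1.0 was also already lower in aFR than in FR at 3 hpa, with 6.2, 5.84 and 8.78 CPM in aFR, against 17.4, 24.5 and 15.6 CPM in FR (-1.36, SE 0.26, adjusted p = 0.000109).

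**Figure D3:**
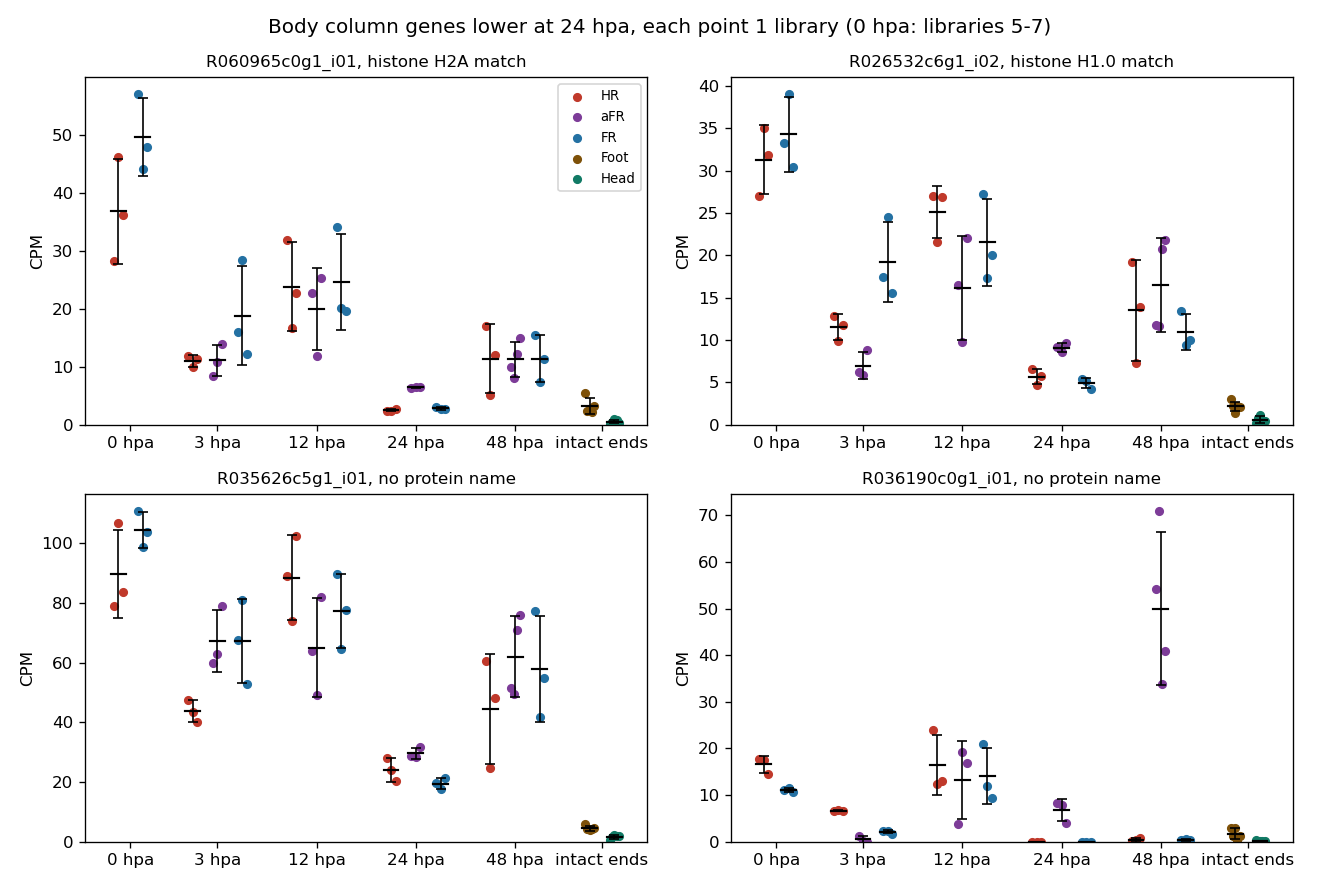
CPM of 4 body column genes (y axes, from 0) in each library by hours after amputation, with intact Foot and Head at the right; horizontal lines are means and bars 1 SD. At 24 hpa the HR and FR points of all 4 genes lie far below those of 0 hpa, with H2A at 2.33 to 2.99 CPM, and R036190c0g1_i01 stands at 33.8 to 71.0 CPM in aFR at 48 hpa.

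The retrotransposon matches, VPS4 and NMRAL1 were lower at 24 hpa as well. Gag-Pol (R041425c3g7_i08) had 27.5, 26.5 and 25.1 CPM in FR at 24 hpa, against 75.9, 67.3 and 73.0 CPM at 0 hpa (-1.41, SE 0.14, adjusted p = 1.067e-11), and the Tf2-7 match (R041569c3g1_i01) differed by -1.03 (SE 0.12, adjusted p = 3.905e-09). Both also passed in HR and in aFR. VPS4 (R030154c0g1_i02) had 4.36, 4.02 and 3.05 CPM in FR at 24 hpa, against 13.98, 14.3 and 15.95 CPM at 0 hpa (-1.93, SE 0.20, adjusted p = 1.32e-10), and NMRAL1 (R036578c0g1_i01) differed by -1.82 (SE 0.18, adjusted p = 1.759e-11). Retrotransposon transcripts have near-identical copies, so the reads of these 2 members may belong to others.

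Members without a name were lower too. R001575c0g1_i01, whose reading frame opens above, had 10.9, 12.1 and 10.4 CPM in FR at 24 hpa, against 41.1, 35.5 and 38.6 CPM at 0 hpa (-1.75, SE 0.18, adjusted p = 4.481e-11), and 15.5, 12.9 and 15.8 CPM in HR, against 29.9, 41.3 and 32.0 CPM (-1.16, SE 0.17, adjusted p = 5.135e-07). R035626c5g1_i01 had 19.5, 17.5 and 21.2 CPM in FR at 24 hpa, against 111.0, 98.8 and 103.7 CPM at 0 hpa (-2.38, SE 0.22, adjusted p = 3.68e-12), and R035632c0g1_i01 differed by -2.27 (SE 0.21, adjusted p = 3.73e-12). The zinc finger gene R003173c0g1_i01 had 98.03, 94.9 and 95.4 CPM in FR at 24 hpa, against 88.2, 90.5 and 87.0 CPM at 0 hpa, and did not pass.

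HR tips had more of 3 members at 24 hpa than at the start, namely R036990c4g1_i01, R036990c4g2_i06 and R031367c0g1_i01. R036990c4g2_i06 had 213.2, 223.9 and 212.4 CPM in HR at 24 hpa, against 157.2, 182.7 and 165.9 CPM at 0 hpa (0.43, SE 0.10, adjusted p = 0.0003445). R031367c0g1_i01 had 62.0, 63.8 and 64.6 CPM in HR at 24 hpa, against 40.2, 42.8 and 35.8 CPM (0.75, SE 0.20, adjusted p = 0.002841). It stood at 69.1 to 74.3 CPM in FR at 24 hpa too, against 37.6 to 66.9 CPM at 0 hpa, without passing.

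Of the 17 cell cycle matches 16 were lower at 24 hpa in HR (median -0.55), 9 in aFR (median -0.33) and 15 in FR (median -0.49), and none was higher in any. Their summed level was 792 to 817 CPM in HR, 980 to 1003 CPM in aFR and 835 to 868 CPM in FR at 24 hpa, against 1228 to 1360 CPM in HR and 1277 to 1419 CPM in FR at 0 hpa. In Foot and Head it was 358 to 402 CPM and 210 to 232 CPM. Of 9 germline matches 6 were lower in HR, 7 in aFR and 6 in FR, at medians of -0.44, -0.38 and -0.43. The nerve list had 2 of 9 members higher in HR, 3 in aFR and 4 in FR. The part of these lists in the falls of the body column genes was not tested.

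Few members were lower both at 24 than at 0 hpa and in HR than in FR at 48 hpa. Of the 55 members lower in HR than FR at 48 hpa, 5 were among the 26 that fell in FR at 24 hpa (9.09% of the one list and 19.2% of the other) and 8 among the 28 that fell in HR (14.5% and 28.6%). No difference between the arms in the change from 0 to 24 hpa passed for any member (0.537% of all transcripts passed, 0.453% with the higher change in HR), with 10 members at an unadjusted p under 0.05, 0 calls by DESeq2 and 1 at an adjusted p under 0.05. Between HR and FR at 24 hpa 3 members passed in the fit of all 61 libraries, 1 higher and 2 lower in HR (2.51% and 1.89% of all transcripts, 4.4% together). Their share of 3.26% lay near that of all transcripts in that fit only. Fitting only the groups compared, 48 of 91 members passed, 10 higher and 38 lower in HR, with 12.7% of all transcripts called. The 3 were R036990c4g2_i06 (213.2, 223.9 and 212.4 CPM in HR, against 164.3, 164.3 and 160.5 CPM in FR), R039296c1g1_i01 and the choriolytic enzyme R030221c0g1_i02, and the count was 1 without FR library 3 or HR library 2.

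**Figure D4:**
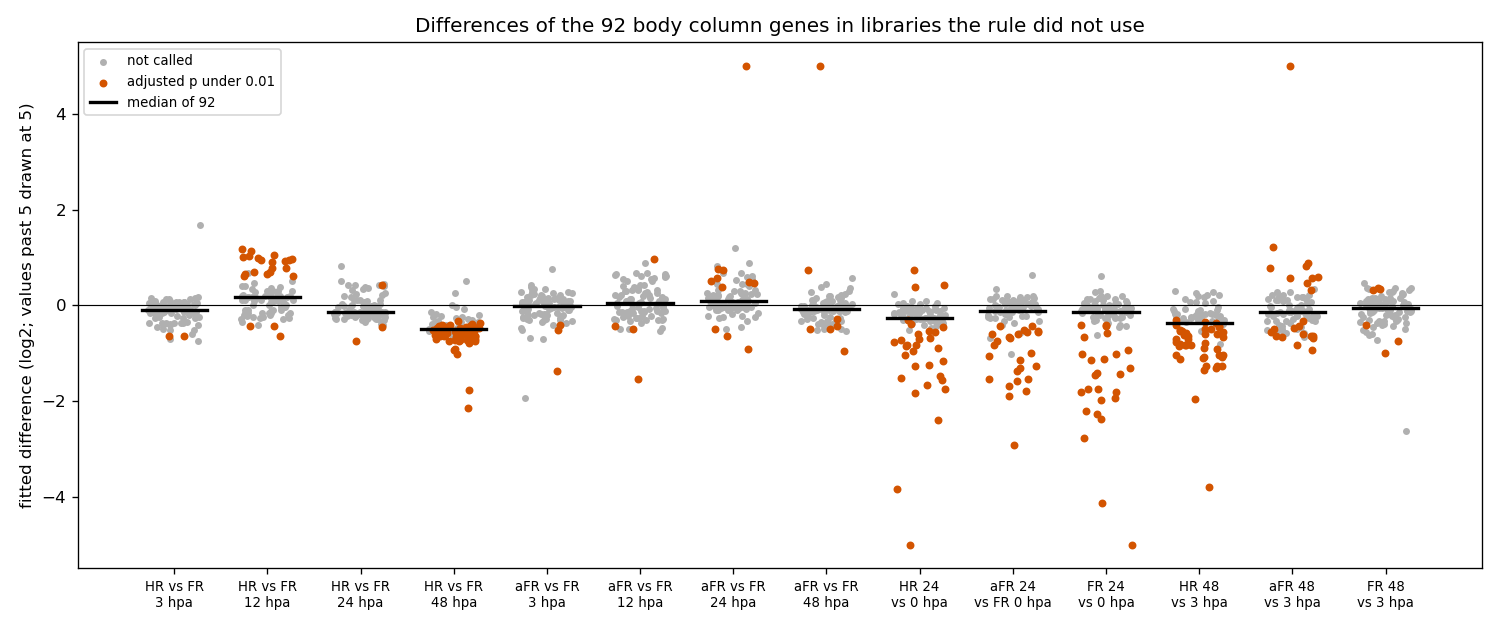
Fitted log2 difference (y axis) of each of the 92 body column genes in 14 comparisons (x axis); orange points passed an adjusted p under 0.01, gray points did not, black lines are medians of the 92, and 5 points past 5 are drawn at the edge. Orange points lie below 0 throughout HR against FR at 48 hpa and HR at 48 against 3 hpa, and above 0 for most in HR against FR at 12 hpa. At 24 against 0 hpa most form a low tail, under medians of -0.27 in HR, -0.11 in aFR and -0.15 in FR.

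At 12 hpa the direction between the arms was the opposite for many members. In HR 19 were higher and 3 lower than in FR (4.52% and 4.06% of all transcripts, 8.58% together), and the groups did not overlap in any of the 22, nor in 97.8% of all 1516 transcripts called. R040269c0g1_i01, without a protein name, had 102.9, 100.2 and 104.7 CPM in HR at 12 hpa, against 44.8, 45.4 and 41.0 CPM in FR (1.19, SE 0.24, adjusted p = 0.0003271). R033094c0g2_i01 had 49.6, 44.3 and 42.4 CPM in HR, against 21.9, 22.9 and 21.2 CPM in FR (1.00, SE 0.18, adjusted p = 6.194e-05), and R039554c2g1_i02 had 412.7, 382.8 and 413.2 CPM in HR, against 212.3, 209.2 and 206.3 CPM in FR (0.90, SE 0.19, adjusted p = 0.0004618).

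Levels in both arms differed between times, but time and batch cannot be told apart across all of them. Libraries 5 to 7 of 0 hpa and those of 24 hpa are batch 2, and the other times are batch 1. In the batch 1 libraries of 0 hpa (1 to 4) R040269c0g1_i01 had 90.5 ± 12.9 CPM in HR (SD, n = 4). R040269c0g1_i01 had 68.6 to 81.6 CPM in HR at 0 hpa (libraries 5 to 7), 64.5 to 93.2 CPM at 3 hpa, 100.2 to 104.7 CPM at 12 hpa, 58.1 to 74.6 CPM at 24 hpa and 32.2 to 53.8 CPM at 48 hpa. It had 75.8 to 83.4 CPM in FR at 0 hpa (libraries 5 to 7), 53.6 to 83.9 CPM at 3 hpa, 41.0 to 45.4 CPM at 12 hpa, 65.1 to 70.4 CPM at 24 hpa and 36.0 to 77.0 CPM at 48 hpa. In aFR at 12 hpa it had 77.9, 104.1 and 83.4 CPM. FR library 4 at 0 hpa was low for some of these genes, at 34.7 CPM for R040269c0g1_i01 against 82.9 to 103.3 CPM in libraries 1 to 3, and at 179.0 CPM for R039554c2g1_i02 against 355.4 to 418.7 CPM. The sum of the 92 was 15100 ± 308 CPM at 12 hpa, against 13180 ± 680 CPM at 3 hpa, in HR, and 13380 ± 507 CPM at 12 hpa, against 14080 ± 983 CPM at 3 hpa, in FR (SD, n = 3 each), with no test made of these changes.

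None of the 19 was among the members that fell at 24 hpa in HR or FR, and 6 were among the 55 lower in HR at 48 hpa (31.6% of the one list and 10.9% of the other). The members lower in HR at 12 hpa were R039296c1g1_i01 (240.8, 261.2 and 264.9 CPM in HR, against 341.8, 431.5 and 386.7 CPM in FR), the choriolytic enzyme R030221c0g1_i02 and R029226c0g1_i01. R039296c1g1_i01 differed by -0.64 at 12 hpa (SE 0.12, adjusted p = 0.0001981), by -0.75 at 24 hpa (SE 0.12, adjusted p = 1.111e-05) and by -0.65 at 48 hpa (SE 0.12, adjusted p = 2.608e-05). At 12 hpa 4 of 9 nerve matches were lower in HR, with summed levels of 68.9 to 73.7 CPM in HR and 100.5 to 104.9 CPM in FR. No cell cycle or germline match passed. Also lower in HR were 4 of 13 transcripts of the digestive enzyme list and 1 of 9 toxin, P4H-TM and transporter matches. Higher in HR were 3 of 6 foot genes and 2 of 5 head genes. The part of these lists was not tested.

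The count at 12 hpa rested on single libraries. It was 8 without FR library 2, 9 without FR library 4, 10 without HR library 1, 14 without HR library 2 and 12 without HR library 4, 5 with a required fold of 1.2, and 34 (8.49% of all transcripts) with only the groups compared in the fit.

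**Figure D5:**
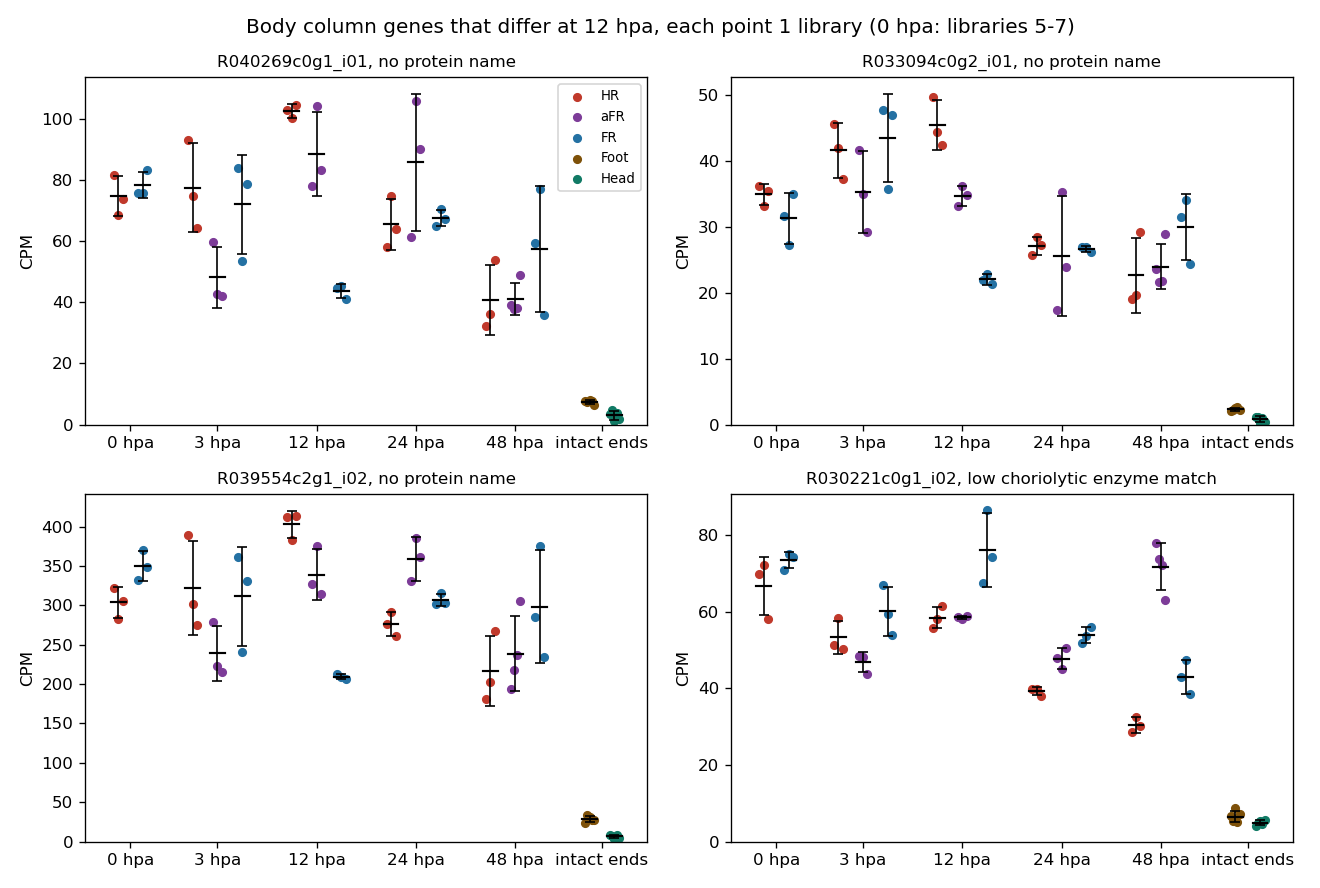
CPM of 4 body column genes (y axes, from 0) in each library by hours after amputation, with intact Foot and Head at the right; horizontal lines are means and bars 1 SD. At 12 hpa the HR points of R040269c0g1_i01, R033094c0g2_i01 and R039554c2g1_i02 lie above all FR points, and those of the choriolytic enzyme match R030221c0g1_i02 lie below them.

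At the first times the share of members that passed between the arms lay at or under that of all transcripts. At 0 hpa (libraries 5 to 7) no member passed between HR and FR (1.82% of all transcripts, 0.668% higher and 1.15% lower), with 5 at an unadjusted p under 0.05 and 1 call by DESeq2. At 3 hpa 2 passed (2.17% of the members), both lower in HR (1.26% of all transcripts higher, 1.65% lower, 2.91% in either direction). R026804c0g2_i01 had 50.7, 58.1 and 49.8 CPM in HR, against 86.8, 78.1 and 84.4 CPM in FR (-0.63, SE 0.12, adjusted p = 0.0003451). R023159c0g1_i02 had 93.8, 94.1 and 113.6 CPM in HR, against 162.7, 167.5 and 149.7 CPM in FR (-0.65, SE 0.16, adjusted p = 0.007173). The 0 hpa count was 1 without FR library 5, and the 3 hpa count was 1 without FR library 1, FR library 3, HR library 1 or HR library 2. Fitting only the groups compared, 5 passed at 3 hpa, with 2.0% of all transcripts called.

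The comparisons of aFR with FR use the same FR libraries as those of HR with FR. In aFR against FR 3 members passed at 3 hpa, all lower (6.86% of all transcripts lower, 13.0% in either direction), 1 higher and 3 lower at 12 hpa (2.19% and 1.62%, 3.81% together), 8 higher and 3 lower at 24 hpa (4.73% and 6.06%, 10.8% together), and 2 higher and 5 lower at 48 hpa (8.84% and 6.99%, 15.8% together). These are 3.26%, 4.35%, 12.0% and 7.61% of the members, so at 12 and 24 hpa the share lay near that of all transcripts. Fitting only the groups compared, 8 (10.4% of all transcripts), 28 (5.5%), 32 (16.8%) and 7 (9.48%) members passed. The medians of the 92 were -0.02, 0.04, 0.09 and -0.08. The summed level at 48 hpa was 11780 to 13490 CPM in aFR and 12370 to 14760 CPM in FR, and these overlapped.

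R036190c0g1_i01, without a protein name, was the exception in size. It had 54.2, 71.0, 33.8 and 41.0 CPM in aFR at 48 hpa, against 0.233, 0.482 and 0.268 CPM in FR (7.25, SE 0.60, adjusted p = 3.585e-13). HR at 48 hpa was near the FR values, with 0.0547, 0.32 and 0.866 CPM. At 24 hpa aFR had 8.25, 7.88 and 4.04 CPM, and all 3 HR and all 3 FR libraries had an expected count of 0. Set against a floor of 3 counts over the FR group, aFR at 24 hpa was at least 137-fold higher than FR.

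Its level in FR differed between times, with 0 hpa libraries 5 to 7 and 24 hpa in batch 2 and the other times in batch 1. FR had 10.6 to 11.47 CPM at 0 hpa (libraries 5 to 7), 1.72 to 2.28 CPM at 3 hpa, 9.35 to 20.9 CPM at 12 hpa, 0 at 24 hpa and 0.233 to 0.482 CPM at 48 hpa. With the same floor, FR at 24 hpa was at least 225-fold lower than at 0 hpa and HR at least 285-fold lower. The gene also differed between batches at 0 hpa, with 25.2 to 44.3 CPM in FR libraries 1 to 4.

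The choriolytic enzyme (R030221c0g1_i02) was the other member higher in aFR at 48 hpa. It had 77.9, 73.7, 72.3 and 63.1 CPM in aFR, against 42.8, 47.3 and 38.5 CPM in FR (0.73, SE 0.10, adjusted p = 1.924e-07), and 28.5, 32.5 and 30.2 CPM in HR. In FR it was below its 3 hpa level at 48 hpa (-0.41, SE 0.11, adjusted p = 0.006013), in HR likewise (-0.77, SE 0.11, adjusted p = 1.669e-07), and in aFR above it (0.58, SE 0.10, adjusted p = 7.346e-06). At 12 hpa it had been lower in aFR than in FR (-0.43, SE 0.11, adjusted p = 0.006984).

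R040937c1g5_i01 ran the other way. It had 9.95, 5.18 and 8.79 CPM in aFR at 12 hpa, against 24.2, 20.9 and 22.1 CPM in FR (-1.54, SE 0.18, adjusted p = 1.115e-08), and 24.0, 17.8, 29.9 and 30.3 CPM in aFR at 48 hpa, against 60.4, 42.7 and 45.2 CPM in FR (-0.96, SE 0.14, adjusted p = 6.696e-07). At 48 hpa HR was thus lowest, aFR next and FR highest, without overlap. R026804c0g2_i01 was lower in aFR at 12 hpa (-0.49, SE 0.12, adjusted p = 0.007143) and at 48 hpa (-0.48, SE 0.11, adjusted p = 0.0008889). R036990c4g1_i01 and R036990c4g2_i06, of 1 assembly cluster, were both lower in aFR at 24 hpa. R036990c4g2_i06 had 97.9, 103.4 and 113.3 CPM in aFR, against 164.3, 164.3 and 160.5 CPM in FR (-0.65, SE 0.10, adjusted p = 1.061e-06), whereas it was higher in HR than in FR.

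Other members were higher in aFR at 24 hpa than in FR. Gag-Pol (R041425c3g7_i08) had 44.9, 42.3 and 44.9 CPM in aFR, against 27.5, 26.5 and 25.1 CPM in FR (0.73, SE 0.14, adjusted p = 6.743e-05), and the Tf2-7 match (R041569c3g1_i01) and NMRAL1 (R036578c0g1_i01) differed by 0.52 (SE 0.12, adjusted p = 0.001546) and 0.75 (SE 0.19, adjusted p = 0.00265). The P4H-TM match R034192c0g1_i01 had 146.1, 146.1 and 140.8 CPM in aFR, against 102.2, 104.1 and 101.4 CPM in FR (0.48, SE 0.11, adjusted p = 0.001518). Of 17 cell cycle matches 4 were higher in aFR at 24 hpa and 10 at 48 hpa (medians 0.21 and 0.29), and of 6 foot genes 5 and 4 were higher. The part of these lists was not tested.

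Within aFR from 3 to 48 hpa 10 members were higher and 13 lower at 48 hpa (15.0% and 11.9% of all transcripts, 26.9% together). The share of members that passed lay near that of all transcripts in the fit of all 61 libraries. The higher ones were led by R036190c0g1_i01, R034192c0g1_i01 (156.6, 160.7, 146.7 and 154.9 CPM at 48 hpa, against 82.3, 80.8 and 84.1 CPM at 3 hpa) and R034980c0g1_i01, and the lower ones by R026804c0g2_i01, R040937c1g5_i01 and R040700c0g1_i01. R034980c0g1_i01 had 67.4, 80.6, 67.8 and 75.5 CPM at 48 hpa, against 39.1, 40.3 and 44.7 CPM at 3 hpa (0.78, SE 0.09, adjusted p = 1.45e-09). It was also higher at 48 than at 3 hpa in FR (0.36, SE 0.10, adjusted p = 0.007063), with R032187c0g1_i01 and R038732c0g3_i01. That FR count, 6 in both directions, was 2 without FR library 1 or 3 of 3 hpa or FR library 4 of 48 hpa.

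The aFR counts rested on single libraries too. The 3 hpa count was 5 without FR library 3 and 1 without FR library 4, aFR library 1 or aFR library 3, and the 12 hpa count was 1 without FR library 2, FR library 4 or aFR library 2 and 2 without aFR library 1 or 3. The 24 hpa count was 7 without FR library 3, the 48 hpa count 4 without FR library 4, and the aFR count from 3 to 48 hpa 13 without aFR library 1 of 3 hpa and 39 (27.7% of all transcripts) with only the groups compared in the fit.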

How the data were processed

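The authors trimmed the reads with Trimmomatic (0.39 in the labels), aligned them with Bowtie2 and obtained RSEM expected counts per transcript on a reduced transcriptome assembly, deposited without batch correction. The deposited FPKM values, also from RSEM, served for levels per length and 1 alternative. 4 FPKM columns were not used. Of 61 count columns 30 matched 1 sample and 31 a group only.

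Expected counts were rounded and fitted with edgeR 4.0.16 in R 4.3.3 (TMM, filterByExpr, quasi-likelihood, 1 term per group, 0 hpa split by batch), adjusted p under 0.01 over 17676 transcripts. The steps were tested on simulated data. Foot, Head and 0 hpa libraries 1 to 4 chose the members and entered no comparison, only the shared estimate of the spread. The members and lists were chosen with earlier results of these data known. Named were all members with a protein name, the 6 highest in FPKM, the 5 largest gaps, those at the threshold, and up to 3 per comparison and direction by p without overlap. R001575c0g1_i01 was added since its sequence was at hand. The authors' own comparison columns were not used. Alternatives were no filter, DESeq2 1.42.0, limma 3.58.1 on FPKM, glmTreat, other designs and each library left out.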

Additional observations from a re-analysis of the deposited data

Results flagged for a closer look

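Of 70 groups of 4 to 10 libraries examined for a single far library, 5 had one, and chance gives about 1 in 20. The Foot library ON1 lay far below the other Foot libraries in the summed level of the body column genes, at 1154 CPM (the others 1463 to 1528 CPM), in the P4H-TM match R014900c0g1_i02 at 8.61 CPM (13.5 to 14.9 CPM) and in FKBP14 (R021009c0g1_i01) at 14.1 CPM (19.9 to 20.7 CPM). The zinc finger gene R003173c0g1_i01 was far above the others in Foot library ON6, at 11.4 CPM (8.51 to 9.27 CPM), and far below them in aFR library 4 at 48 hpa, at 87.0 CPM (92.7 to 93.3 CPM). The change from 3 to 48 hpa differed between HR and FR in 26 members by the test of that difference, each with the more negative change in HR.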

How the results depend on the processing

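Of 1981 alternative values for 139 pairs of a named gene and a comparison, 1705 kept their direction and side of the threshold, 276 kept the direction only, and none reversed. Of 134 alternative counts of members 90 stayed within 1.5 times. With an adjusted p under 0.05 the HR against FR counts were 1, 4 and 8 at 0, 3 and 24 hpa, the aFR against FR counts 6, 12, 20 and 12 at 3, 12, 24 and 48 hpa, the 48 against 3 hpa counts 18 in FR and 41 in aFR, and the difference of changes from 0 to 24 hpa 1. With a required fold of 1.2 (glmTreat) HR against FR gave 0, 5, 1 and 27 at 3, 12, 24 and 48 hpa, aFR against FR 1, 1, 4 and 3, HR at 24 against 0 hpa 20, 48 against 3 hpa 1 in FR, 26 in HR and 11 in aFR, and the difference of changes to 48 hpa 4. Fitting only the groups compared, HR against FR gave 5, 34 and 48 at 3, 12 and 24 hpa, aFR against FR 8, 28 and 32 at 3, 12 and 24 hpa, HR at 24 against 0 hpa 61, 48 against 3 hpa 1 in FR and 39 in aFR, and the differences of changes 10 to 48 hpa and 1 to 24 hpa. With batch as a term HR against FR gave 1 at 0 hpa and 5 at 24 hpa, and the difference of changes to 24 hpa 1. DESeq2 gave 1, 1 and 7 for HR against FR at 0, 3 and 24 hpa and 13 for FR at 48 against 3 hpa. FPKM with limma gave 13 and 7 at 12 and 24 hpa, and after TMM scaling the rule took 45 transcripts. The cause of these shifts was not tested.

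With each library left out, HR against FR ranged over 0 to 1, 1 to 3, 8 to 15, 1 to 2 and 37 to 55 at 0, 3, 12, 24 and 48 hpa, and aFR against FR over 1 to 5, 1 to 3, 7 to 9 and 4 to 10 at 3, 12, 24 and 48 hpa. The 24 against 0 hpa counts ranged over 23 to 26 in FR, 25 to 28 in HR and 19 to 25 in aFR, and the 48 against 3 hpa counts over 2 to 5, 30 to 51 and 13 to 25. The difference of changes ranged over 4 to 34 to 48 hpa and was 0 throughout to 24 hpa. With the replicate block the counts were 0 for HR against FR at 0 hpa, 3 at 24 hpa, 11 for aFR against FR at 24 hpa and 0 for the difference of changes to 24 hpa, as without it. Deviations of libraries with the same number correlated at -0.120 to 0.021, and those of libraries with different numbers at -0.039 to 0.103. These values cannot show whether libraries with the same number came from the same polyps. No paired analysis was possible at 3, 12 and 48 hpa, because the FR and HR columns (and at 3 hpa the aFR columns) carry no number matched to the labels. FPKM was not run for comparisons with HR libraries of 3 hpa or with aFR libraries.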
